A study of Mus musculus with 18 samples.

Results

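The 33 genes described here make, take up, move or export cholesterol in mouse leukaemia cells. They are listed rows of a table of 23899 genes: 8 enzymes of the mevalonate pathway, 11 enzymes from squalene to cholesterol, 5 regulators of the transcription factors SREBP, 5 genes of uptake and transport within the cell, and 4 genes of efflux. Of the 33, 31 had a mean of at least 1 FPKM (fragments per kilobase of transcript, scaled to library size) over all libraries and were tested among 11550 such genes. Abca1 and Nr1h3 lay under that level and are given by level only.

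Cells make cholesterol from acetyl-CoA through mevalonate, isoprenoid units, squalene and lanosterol. When membranes of the endoplasmic reticulum are short of sterol, the escort Scap carries SREBP to the Golgi, where it is cleaved, and the freed factor switches on the enzymes of synthesis, whereas the Insig proteins hold the complex back when sterol is plentiful. When sterol is in excess, its oxidised forms activate the LXR receptors (Nr1h2 and Nr1h3), which switch on the exporters Abca1 and Abcg1 and the ligase Mylip, which degrades lipoprotein receptors.

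Poly(A) RNA was sequenced from MLL-AF9 leukaemia cells with Cas9, grown in RPMI medium with serum and mouse interleukin-3, a cytokine of myeloid progenitors. MLL-AF9 is a fusion oncoprotein of acute myeloid leukaemia, and every group, controls included, carries it together with Cas9. There are 18 libraries in 6 groups of 3: 4 guide RNAs against Jmjd1c (named e21.1, e20.1, e12.4 and e12.3), a guide against Renilla luciferase, which has no target in mouse cells, and mock. Jmjd1c encodes a jumonji-domain protein related to the H3K9 demethylases, and the series aimed its guides at the jumonji and zinc finger domains. The labels do not say which guide cuts which domain, what mock received, whether cells were bulk populations or clones, or whether a group's 3 libraries came from separate cultures. The p-values therefore measure only the spread between these libraries, which may be technical.

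The Jmjd1c transcript was present in every library, at 78.3 ± 12.26 FPKM (SD, n = 3) with the Renilla guide and 74.5 ± 2.69 in mock, against 60.5 ± 5.40 with e12.3, 68.3 ± 7.69 with e12.4, 59.8 ± 16.01 with e20.1 and 67.9 ± 5.40 with e21.1. A small indel need not change the level of a transcript, so these values do not check the editing. Estimated depth was 20.8 to 183 M reads (median 32.1). The 9 myeloid markers of the cells were present in every library, among them Ptprc (69.4 to 110.2 FPKM) and Hoxa9 (64.2 to 119 FPKM). Not all were steady, and Mpo ranged from 133 to 1376 FPKM. The summed level of the 9 was 2611 to 2996 FPKM with the Renilla guide and 2588 to 2834 in mock. Over the guide libraries it was 1185 to 2296 FPKM. This sum is weighted to abundant genes such as Mpo and Ctsg (278 to 1019 FPKM over all libraries). The median difference of the 9 between the mean of the 4 guides and Renilla was -0.007 on the log2 scale.

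A pair of guide libraries stood apart in these genes, e12.3 replicate 3 and e21.1 replicate 3. Both lay below each of the 16 other libraries in 13 of the 31 tested genes, 11 of them among the 19 synthesis enzymes, where 11.4% of all tested genes did so. Both lay below the other 10 guide libraries in 18 of the 19 synthesis enzymes, where 16.2% of all tested genes did so. They were also the deepest guide libraries, at an estimated 67.1 and 75.6 M reads, and the highest of all 18 in neutrophil markers. Results are given with all 18 libraries and again without this pair, which removes the lowest guide values of most synthesis genes and so favours higher calls.

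The promoters of Hmgcs1, Mvd and Sc5d, synthesis enzymes, are shown because they hold motifs known from the sterol control of this pathway. Mvd and Sc5d were called against both controls with all 18 libraries, and Hmgcs1 against neither until the pair was left out. Each is the 150 bases before the annotated start, 5′ to 3′ on the gene's strand, from RefSeq on GRCm38.p6. Capitals mark the sterol regulatory element, TCACNCCAC, bound by SREBP, and CCAAT, the box bound by the factor NF-Y, each searched on both strands (CCAAT reads ATTGG on the other strand).
Hmgcs1 (chr13:119690201-119690350, plus strand): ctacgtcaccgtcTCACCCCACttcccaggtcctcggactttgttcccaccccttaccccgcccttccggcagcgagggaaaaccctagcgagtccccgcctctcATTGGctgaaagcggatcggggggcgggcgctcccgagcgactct
Mvd (chr8:122443423-122443572, minus strand): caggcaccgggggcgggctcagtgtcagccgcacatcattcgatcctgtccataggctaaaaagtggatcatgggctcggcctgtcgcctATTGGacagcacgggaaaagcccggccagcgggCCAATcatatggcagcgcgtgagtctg
Sc5d (chr9:42264301-42264450, minus strand): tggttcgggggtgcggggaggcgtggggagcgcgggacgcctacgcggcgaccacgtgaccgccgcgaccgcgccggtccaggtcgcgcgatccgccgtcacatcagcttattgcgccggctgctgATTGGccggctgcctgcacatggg
In Hmgcs1 a sterol regulatory element lay 137 to 129 bases before the start and a CCAAT box 45 to 41 bases before it. In Mvd a pair of CCAAT boxes, in opposite orientations, lay 60 to 56 and 27 to 23 bases before the start. In Sc5d the single CCAAT box lay 24 to 20 bases before the start.

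RefSeq windows were at hand for 27 of the 33 genes, 16 of them synthesis enzymes. Within 250 bases before the start, CCAAT was found in 15 of the 16 synthesis enzymes (93.8%), where it was found in 41.5% of the 8454 tested genes with a window and in 33.9% of all 32851 windows. The exception was Acat2. Among the 11 other members with a window, 7 held CCAAT: Insig1, Insig2, Mylip, Npc2, Soat1, Srebf1 and Srebf2. The GC box GGGCGG, bound by Sp1, was found in 14 of the 16 synthesis enzymes (87.5%) and in 64.4% of tested genes. TCACNCCAC was found in Hmgcs1 alone among the members, and in 1.17% of tested genes. These are matches of letters in 1 window per start, not binding sites, and other forms of the element were not searched.

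With all 18 libraries, 4 of the 31 genes were higher in the mean of the 4 guides than with the Renilla guide, and 0 were lower (limma-trend on log2(FPKM + 1), Benjamini-Hochberg adjusted p under 0.05 over 11550 genes). The 4 were Mvd, Fdft1, Sc5d and Abcg1. Of all tested genes 7.77% were higher and 3.21% lower in this comparison, so 4 of 31 stood near the background. At an unadjusted p under 0.05, 10 members were called, all higher, where 24.4% of all tested genes passed in either direction. Against mock, 6 genes were higher (Mvd, Fdft1, Sqle, Msmo1, Sc5d and Abcg1) and 0 lower, where 6.84% of all tested genes were higher and 2.16% lower, and 13 members, all higher, passed an unadjusted p under 0.05, where 21.3% of all tested genes passed in either direction. The comparisons use the same guide libraries and differ only in the control. Between the control guide and mock, 0 members and 0% of all tested genes were called, and 0 members (127 genes in all) at an unadjusted p under 0.05.

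Without the pair, 11 of the 31 genes were higher than with the Renilla guide and 0 lower, where 11.0% of all tested genes were higher. Against mock 15 were higher and 0 lower, where 9.95% of all tested genes were higher. Of the 19 synthesis enzymes, 10 were called higher against Renilla and 12 against mock, up from 3 and 5 with all libraries. The median difference of the 19 synthesis enzymes on the log2 scale was 0.31 against Renilla and 0.43 against mock with all libraries, and 0.49 and 0.62 without the pair. The median over all 11550 tested genes was -0.03 and -0.02 with all libraries, and -0.03 and -0.02 without the pair.

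**Figure D1:**
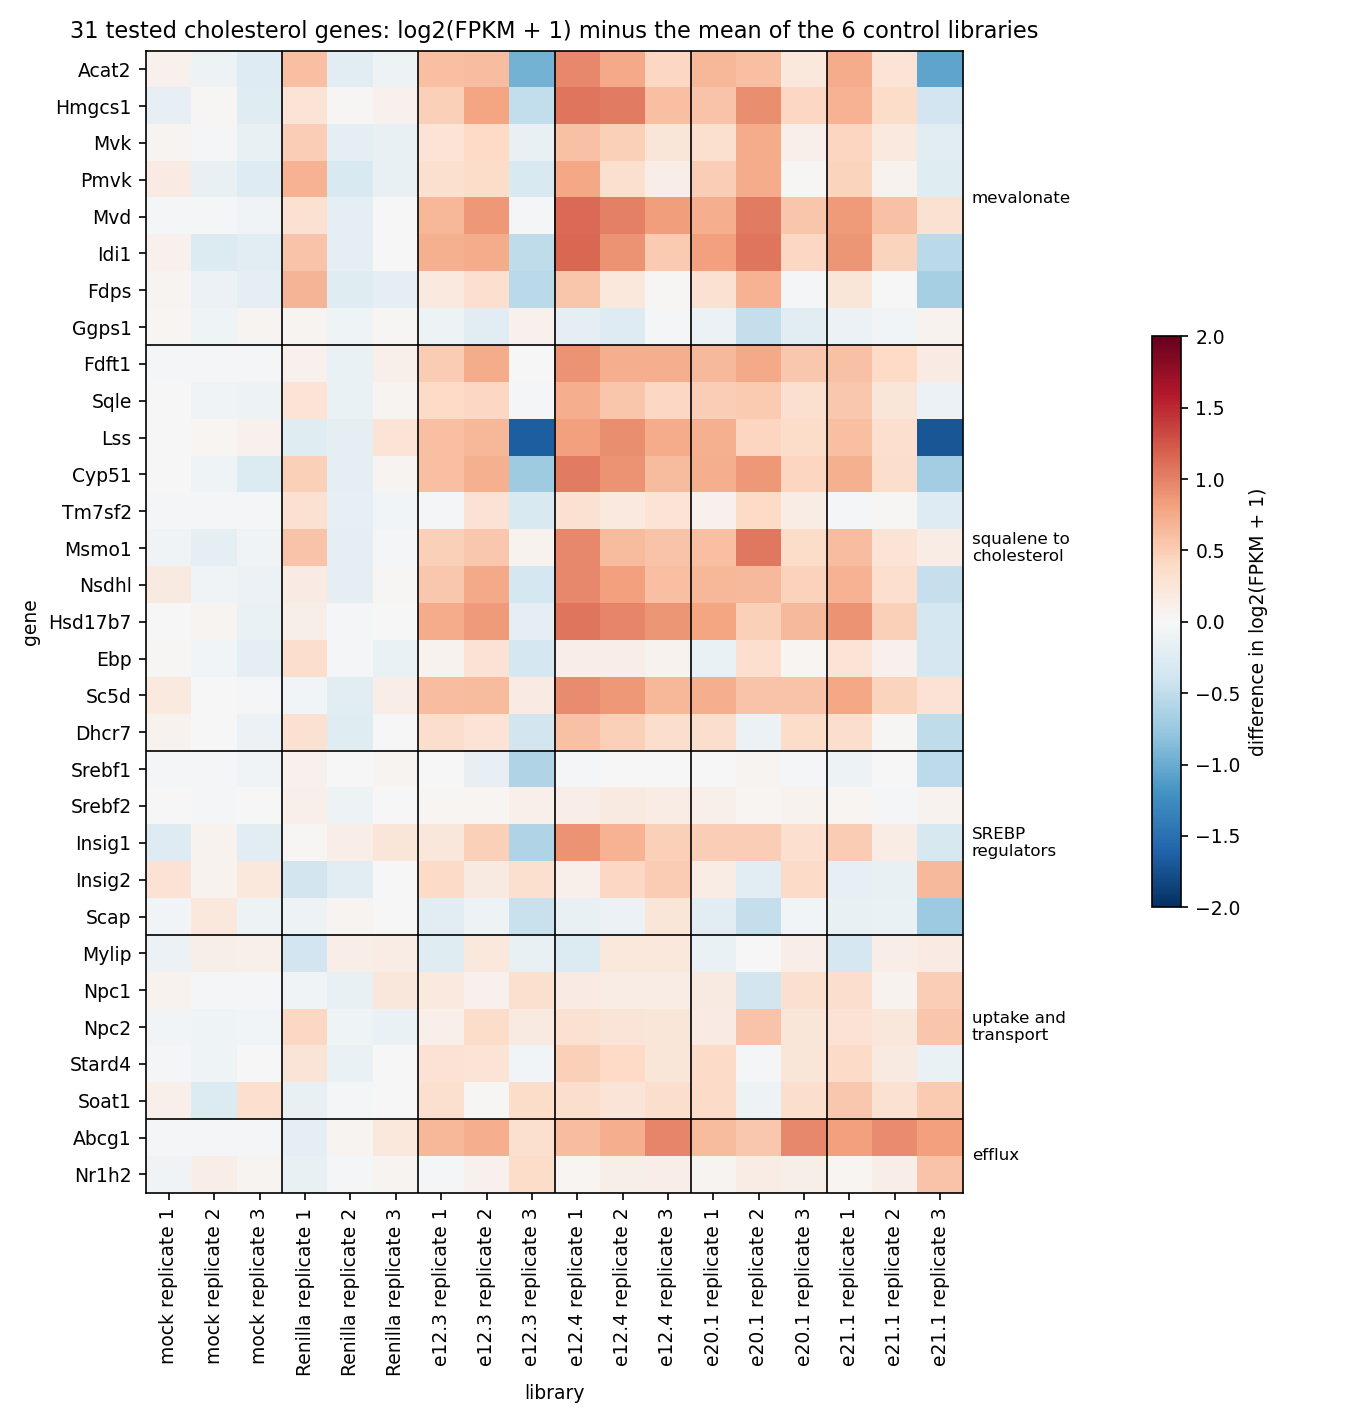
Each row is 1 of the 31 tested genes, grouped by role, and each column 1 of the 18 libraries; colour gives log2(FPKM + 1) minus the mean of the 6 control libraries. Most synthesis rows are red in 10 of the 12 guide libraries and blue in e21.1 replicate 3 and e12.3 replicate 3, where Lss is lowest.

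Library by library, separation was as follows. In all 12 guide libraries Sc5d and Abcg1 lay above all 3 Renilla libraries, which 6.26% of all tested genes did. In all 12, Mvd, Fdft1, Msmo1, Npc2 and Abcg1 lay above all 3 mock libraries, which 6.52% of all tested genes did. Without the pair, 8 genes lay in all 10 remaining guide libraries above all 6 controls, where 7.34% of all tested genes did: Hmgcs1, Mvd, Fdft1, Lss, Nsdhl, Hsd17b7, Sc5d and Abcg1. Of these 8, 7 are synthesis enzymes.

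In the mevalonate pathway, Mvd, the decarboxylase that makes isopentenyl diphosphate, was higher in the guides. Values are given throughout in the order of replicates 1, 2 and 3. Mvd stood at 43.6, 30.7 and 35.4 FPKM with the Renilla guide and at 34.6, 34.7 and 33.3 in mock. The e12.3 libraries held 56.4, 65.3 and 34.7 FPKM, those of e12.4 78.7, 71.4 and 63.7, those of e20.1 59.1, 73.1 and 52.3 and those of e21.1 64.6, 53.1 and 43.7. The e12.3 replicate 3 library lay within the range of the controls and the 11 others lay above all 6 of them. Mvd, on chromosome 8 from 122433601 to 122443422, was higher by 0.67 ± 0.16 (SE) on the log2(FPKM + 1) scale than with Renilla (limma adjusted p = 0.0119) and by 0.75 ± 0.16 than in mock (adjusted p = 0.00603). The call against Renilla depended on its replicates 2 and 3 (adjusted p = 0.0927 and 0.054 when each was left out).

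Hmgcs1, which joins acetoacetyl-CoA and acetyl-CoA, was not called with all 18 libraries and was called against both controls without the pair. Against mock it was also called without either library of the pair alone (lowest limma adjusted p = 0.0154). It stood at 65.6, 54.9 and 57.1 FPKM with the Renilla guide and 47.8, 54.8 and 45.2 in mock. Values of 75.0, 94.2 and 37.9 FPKM were found for e12.3, 114, 111 and 82.1 for e12.4, 80.1, 104 and 71.8 for e20.1 and 88.0, 69.8 and 41.2 for e21.1. The pair lay below all 6 controls and the other 10 guide libraries above all 6. The difference from Renilla was 0.37 ± 0.23 (SE) with all libraries (limma adjusted p = 0.342) and 0.54 ± 0.13 without the pair (adjusted p = 0.0102), and that from mock 0.64 ± 0.23 (adjusted p = 0.109) and 0.81 ± 0.13 (adjusted p = 0.000635).

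Idi1, the isomerase of isopentenyl diphosphate, was likewise called against both controls without the pair and not with all 18 libraries. Against mock it was also called without e12.3 replicate 3 alone (limma adjusted p = 0.0488). It stood at 133, 77.7 and 89.0 FPKM with the Renilla guide and 94.6, 73.5 and 76.8 in mock. Guide e12.3 gave 146, 149.6 and 61.9 FPKM, e12.4 gave 198, 166 and 128, e20.1 gave 158, 188 and 119 and e21.1 gave 165, 121 and 60.9. The pair held the lowest values of all 18 libraries, and Renilla replicate 1 overlapped the other guide libraries. The difference from Renilla was 0.42 ± 0.28 (SE) with all libraries (limma adjusted p = 0.395) and 0.63 ± 0.18 without the pair (adjusted p = 0.0262), and from mock 0.68 ± 0.28 (adjusted p = 0.174) and 0.88 ± 0.18 (adjusted p = 0.0034).

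Acat2, the thiolase that makes acetoacetyl-CoA in the cytosol, was not called with all 18 libraries and without the pair was called against mock, at 0.68 ± 0.17 (limma adjusted p = 0.0152), and not against Renilla. Its values in the pair, 28.7 and 26.5 FPKM, were 33.4% and 30.9% of the mean of the other 10 guide libraries (85.9 FPKM). Mvk and Pmvk, the kinases that phosphorylate mevalonate, differed from Renilla by 0.23 ± 0.17 and 0.18 ± 0.22 and from mock by 0.33 ± 0.17 and 0.35 ± 0.22, and were called in neither comparison, with or without the pair. Fdps, which makes farnesyl diphosphate, was the most abundant member, with a mean of 453 FPKM over the 18 libraries. Its difference from Renilla was 0.03 ± 0.23 and changed sign under some alternatives. Renilla replicate 1 stood at 667 FPKM for Fdps, against 352 to 432 in the 5 other controls. Ggps1, which makes geranylgeranyl diphosphate for protein prenylation and lies off the path to sterol, differed by -0.14 ± 0.09 from Renilla and from mock and was not called (adjusted p = 0.354 and 0.407). It was the only synthesis-list gene in which the pair, at 18.1 and 17.8 FPKM, lay above all 16 other libraries.

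Fdft1, squalene synthase, the step that commits the pathway to sterol, was higher against both controls. It stood at 28.0, 24.0 and 28.3 FPKM with the Renilla guide and 25.9, 25.9 and 25.7 in mock. The e12.3 libraries held 37.9, 44.5 and 26.3 FPKM, those of e12.4 49.7, 44.3 and 44.1, those of e20.1 41.9, 45.3 and 38.6 and those of e21.1 40.1, 34.8 and 29.5. All but e12.3 replicate 3 lay above the 6 controls. Fdft1, on chromosome 14 from 63145150 to 63179578, was higher by 0.54 ± 0.12 (SE) than with Renilla (limma adjusted p = 0.00791; 0.0674 without Renilla replicate 2) and by 0.58 ± 0.12 than in mock (adjusted p = 0.00473).

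Sqle, squalene epoxidase, a rate-limiting oxygenase of the sterol branch, was higher against mock. It stood at 60.8, 45.7 and 52.4 FPKM with the Renilla guide and 50.1, 47.8 and 46.8 in mock. Values of 66.9, 67.1 and 49.3 FPKM were found for e12.3, 83.8, 74.7 and 67.7 for e12.4, 71.1, 72.7 and 63.4 for e20.1 and 74.0, 59.8 and 46.1 for e21.1. The pair lay within the range of the controls, and so did e21.1 replicate 2. The difference from mock was 0.43 ± 0.13 (SE; limma adjusted p = 0.0417), a call that was lost in 11 of the 18 fits that left out 1 library. The difference from Renilla was 0.31 ± 0.13 (adjusted p = 0.136) and 0.39 ± 0.09 without the pair (adjusted p = 0.00883).

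Lss, lanosterol synthase, which closes the sterol rings, showed the widest gap between the pair and the rest among the tested members. It stood at 44.6, 46.6 and 64.3 FPKM with the Renilla guide and 53.3, 54.1 and 55.9 in mock. Guide e12.3 gave 80.3, 83.9 and 16.2 FPKM, e12.4 gave 93.7, 102 and 88.7, e20.1 gave 87.0, 71.3 and 68.7 and e21.1 gave 81.0, 66.6 and 15.3. The pair held 19.6% and 18.6% of the mean of the other 10 guide libraries (82.3 FPKM), and those 10 lay above all 6 controls. The difference from Renilla was 0.28 ± 0.44 (SE) with all libraries (limma adjusted p = 0.749) and 0.65 ± 0.11 without the pair (adjusted p = 0.000621), and from mock 0.19 ± 0.44 (adjusted p = 0.856) and 0.56 ± 0.11 (adjusted p = 0.002).

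Cyp51, lanosterol demethylase, stood at 59.8, 37.6 and 44.6 FPKM with the Renilla guide and 42.9, 40.5 and 35.4 in mock. The e12.3 libraries held 65.4, 70.8 and 25.9 FPKM, those of e12.4 89.1, 80.6 and 66.7, those of e20.1 71.8, 78.8 and 58.0 and those of e21.1 71.1, 54.8 and 26. The pair was again lowest of all 18, and Renilla replicate 1 overlapped the guides. The difference from Renilla was 0.35 ± 0.28 (SE; limma adjusted p = 0.486), and 0.56 ± 0.14 without the pair (adjusted p = 0.0113); that from mock was 0.58 ± 0.28 (adjusted p = 0.247), and 0.79 ± 0.14 without the pair (adjusted p = 0.00109).

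Msmo1, the methyl sterol oxidase, and Nsdhl and Hsd17b7, which complete the removal of the same methyl groups, act in series after Cyp51. Msmo1 stood at 97.3, 57.2 and 63.7 FPKM with the Renilla guide and 62.2, 57.3 and 62.1 in mock. Values of 91.2, 95.2 and 69.0 FPKM were found for e12.3, 128, 102 and 97.3 for e12.4, 100.2, 137 and 85.0 for e20.1 and 101.1, 79.3 and 72.6 for e21.1. All 12 guide libraries lay above mock, whereas Renilla replicate 1 lay among the guides. Msmo1 was higher by 0.64 ± 0.16 (SE) than in mock (limma adjusted p = 0.0209; lost without any 1 of the 3 mock libraries, adjusted p 0.0767 to 0.121) and by 0.41 ± 0.16 than with Renilla (adjusted p = 0.128).

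Nsdhl stood at 23.7, 18.6 and 21.4 FPKM with the Renilla guide and 24.1, 20.08 and 19.5 in mock. Guide e12.3 gave 31.3, 36.6 and 16.3 FPKM, e12.4 gave 42.0, 38.3 and 32.8, e20.1 gave 34.1, 33.6 and 29.6 and e21.1 gave 34.9, 26.9 and 15.02. The pair was below all controls and the other 10 guide libraries above all of them. Its difference from Renilla was 0.47 ± 0.21 (SE; limma adjusted p = 0.188) and 0.64 ± 0.11 without the pair (adjusted p = 0.000692), and its difference from mock was 0.47 ± 0.21 (adjusted p = 0.215) and 0.64 ± 0.11 without the pair (adjusted p = 0.000721).

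Hsd17b7 stood at 10.6, 9.39 and 9.71 FPKM with the Renilla guide and 9.81, 10.1 and 8.73 in mock. The e12.3 libraries held 16.95, 18.4 and 8.42 FPKM, those of e12.4 21.4, 20.2 and 18.7, those of e20.1 17.6, 13.9 and 15.8 and those of e21.1 19.1, 13.9 and 7.41. The same split held, with the pair below the controls and the other 10 guide libraries above. Its difference from Renilla was 0.58 ± 0.21 (SE; limma adjusted p = 0.0974) and 0.75 ± 0.09 without the pair (adjusted p = 6.08e-05), and its difference from mock was 0.63 ± 0.21 (adjusted p = 0.0837) and 0.80 ± 0.09 without the pair (adjusted p = 3.46e-05).

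Sc5d, lathosterol oxidase, a late desaturase of the pathway, was called against both controls with all 18 libraries. It stood at 21.4, 18.9 and 24.7 FPKM with the Renilla guide and 25.6, 22.5 and 21.7 in mock. Values of 34.8, 35.4 and 25.1 FPKM were found for e12.3, 44.2, 41.6 and 36.1 for e12.4, 37.6, 33.7 and 33.9 for e20.1 and 39.0, 30.7 and 27.6 for e21.1. Every guide library lay above the 3 Renilla libraries, and mock replicate 1 overlapped e12.3 replicate 3. Sc5d, on chromosome 9 from 42251595 to 42264256, was higher by 0.66 ± 0.12 (SE) than with Renilla (limma adjusted p = 0.00138) and by 0.55 ± 0.12 than in mock (adjusted p = 0.00575; 0.0561 without mock replicate 3).

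Of the remaining enzymes of this branch, Tm7sf2 (a sterol reductase), Ebp (a sterol isomerase) and Dhcr7, which makes cholesterol from 7-dehydrocholesterol, were called in neither comparison, with or without the pair. Their differences from Renilla were 0.06 ± 0.11, -0.02 ± 0.14 and 0.16 ± 0.17, and 0.12 ± 0.10, 0.07 ± 0.11 and 0.27 ± 0.12 without the pair. Whether enzymes of the route differed from each other in their change was not tested.

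**Figure D2:**
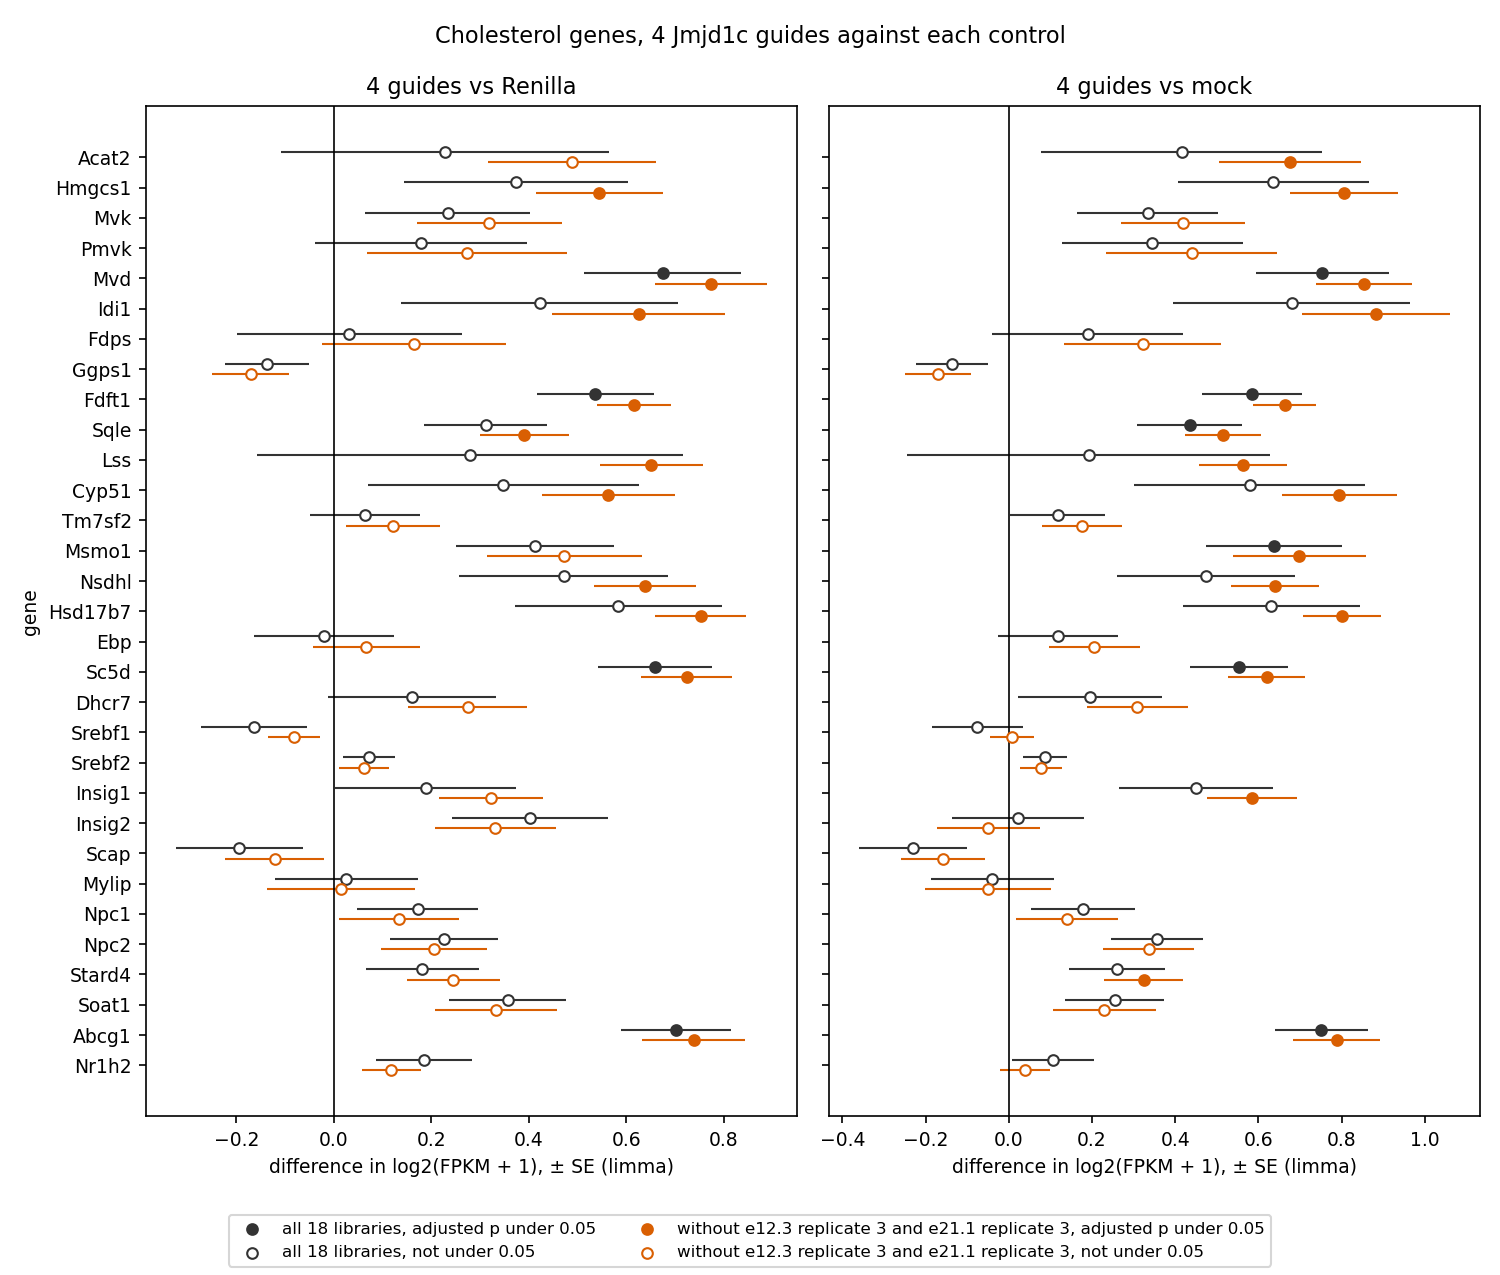
Points are differences in log2(FPKM + 1) between the mean of the 4 guides and Renilla (left) or mock (right) for the 31 tested genes, with limma standard errors; filled points have an adjusted p under 0.05. Black uses all 18 libraries and orange leaves out e21.1 replicate 3 and e12.3 replicate 3; the Lss bar shrinks from 0.44 to 0.11.

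Among the SREBP regulators no gene was called against Renilla. Srebf2, which encodes the SREBP form that chiefly drives cholesterol synthesis, stood at 74.5, 64.8 and 69.9 FPKM with the Renilla guide and 69.7, 67.0 and 69.9 in mock. Guide e12.3 gave 71.1, 71.4 and 74.6 FPKM, e12.4 gave 75.7, 78.6 and 77.0, e20.1 gave 74.2, 71.5 and 73.1 and e21.1 gave 71.2, 68.5 and 73.1. Its whole range was 64.8 to 78.6 FPKM, the pair lay inside it, and its differences were 0.07 ± 0.05 (SE) from Renilla (limma adjusted p = 0.436) and 0.09 ± 0.05 from mock (adjusted p = 0.378). A transcript level says nothing of how much SREBP is cleaved.

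Srebf1, which encodes the form tied more to fatty acid synthesis, stood at 87.8, 81.7 and 85.1 FPKM with the Renilla guide and 80.9, 80.4 and 77.9 in mock. The e12.3 libraries held 83.0, 73.1 and 53.8 FPKM, those of e12.4 81.0, 81.4 and 81.6, those of e20.1 81.8, 85.2 and 80.4 and those of e21.1 76.2, 81.7 and 56.9. The pair was low and the 16 other libraries lay between 73.1 and 87.8 FPKM. Its difference from Renilla was -0.16 ± 0.11 (SE; limma adjusted p = 0.384), and -0.08 ± 0.05 without the pair (adjusted p = 0.324).

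Insig1, which retains SREBP in the endoplasmic reticulum and is itself an SREBP target, followed the synthesis enzymes. It stood at 39.1, 42.4 and 46.1 FPKM with the Renilla guide and 32.2, 40.7 and 33.3 in mock. Values of 45.2, 54.4 and 25.2 FPKM were found for e12.3, 73.1, 62.9 and 54.2 for e12.4, 54.6, 55.0 and 49.0 for e20.1 and 55.7, 43.0 and 30.6 for e21.1. The pair was lowest of all 18, and the other guide libraries overlapped Renilla but not mock. Its difference from mock was 0.45 ± 0.19 (SE; limma adjusted p = 0.166), and 0.58 ± 0.11 without the pair (adjusted p = 0.00173); that from Renilla was 0.19 ± 0.19 (adjusted p = 0.583), and 0.32 ± 0.11 without the pair (adjusted p = 0.0538). Insig2, the related retention protein, and Scap, the escort, were called in neither comparison. Scap stood at 15.01 and 12.26 FPKM in the pair and at 14.6 to 24.9 in the other 16 libraries.

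**Figure D3:**
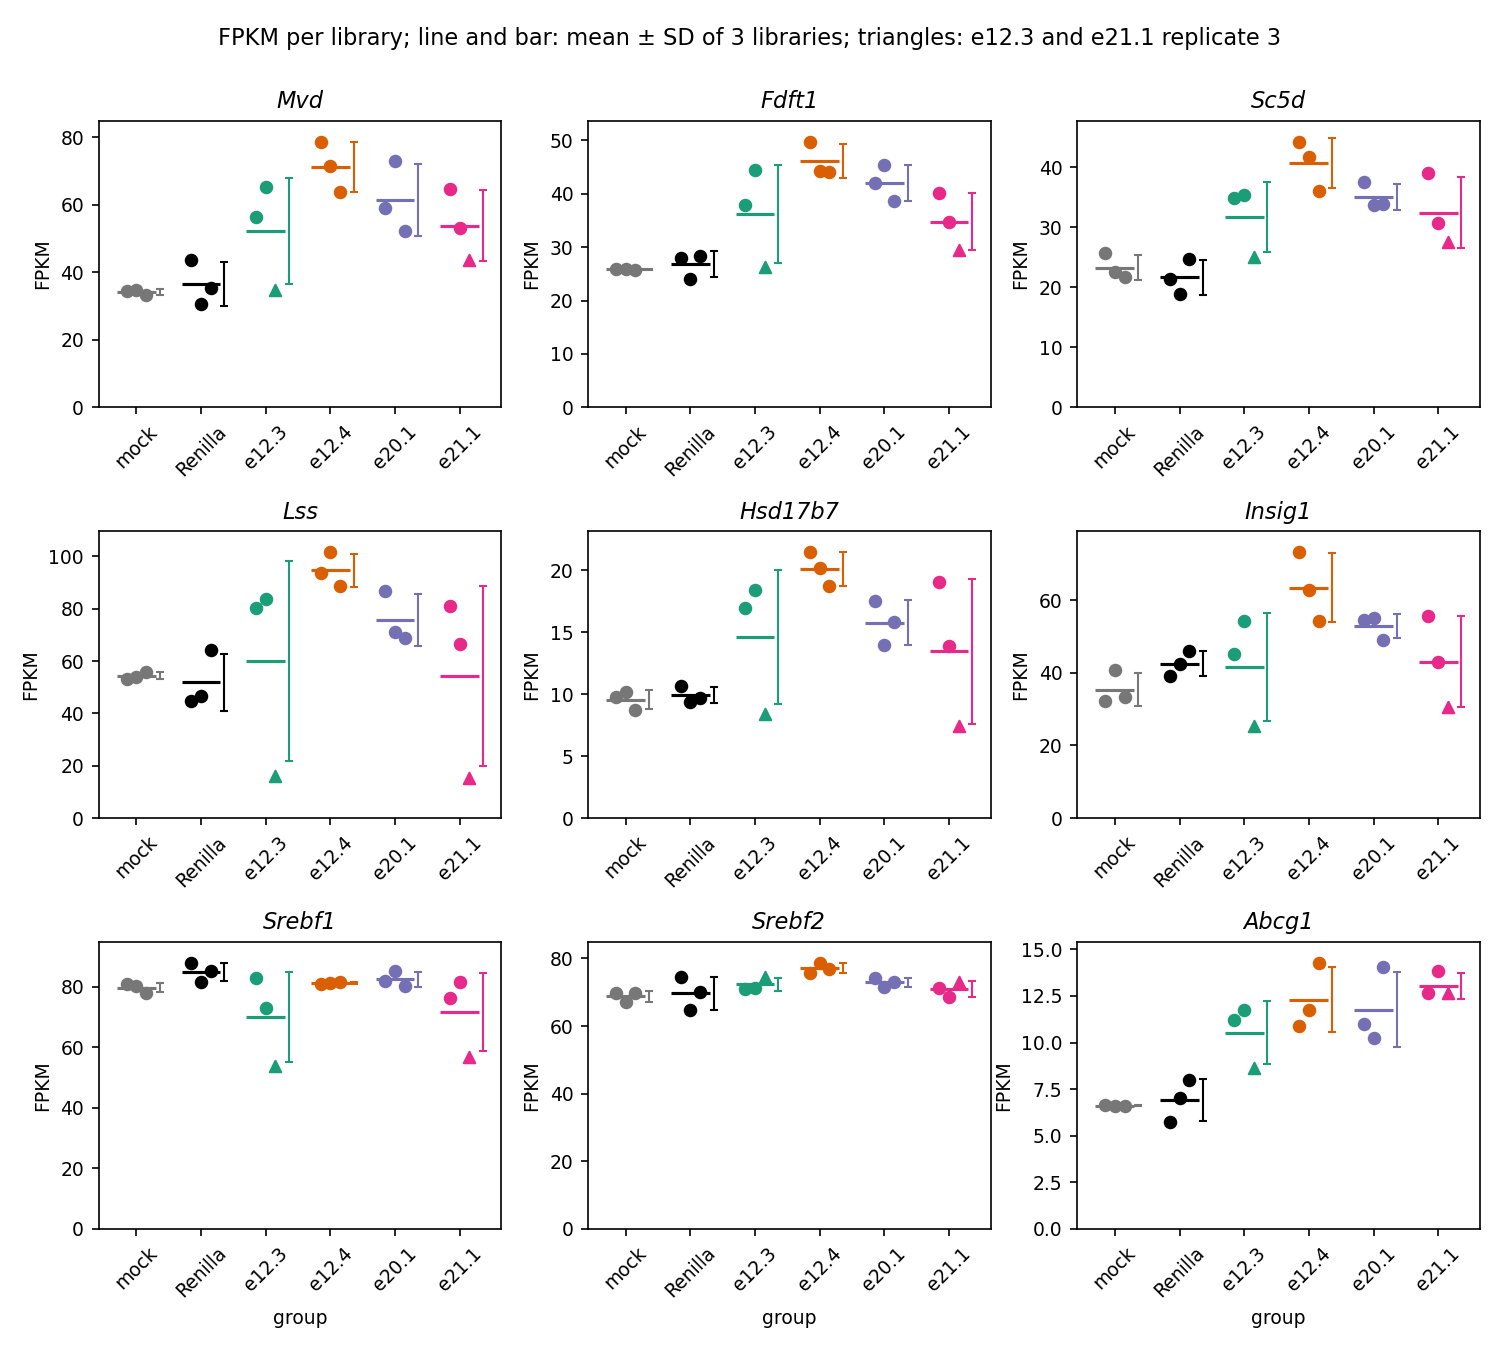
FPKM in each library for 9 genes, in 6 groups of 3; the horizontal line and bar are the mean ± SD of each group, and triangles mark e21.1 replicate 3 and e12.3 replicate 3. Srebf2 spans 64.8 to 78.6 FPKM over all libraries, whereas Lss falls to 16.2 and 15.3 FPKM in the triangles.

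Of the 5 genes of uptake and transport within the cell, none was called against Renilla or mock with all 18 libraries. Unadjusted p under 0.05 was reached by 1 against Renilla and 2 against mock, where 24.4% and 21.3% of all tested genes reached it. Mylip, the LXR-induced ligase that marks lipoprotein receptors for breakdown, differed from Renilla by 0.03 ± 0.15. Npc1 and Npc2, which hand cholesterol out of the lysosome, differed by 0.17 ± 0.12 and 0.23 ± 0.11, and Npc2 by 0.36 ± 0.11 from mock (limma adjusted p = 0.0561). In Npc2 all 12 guide libraries, at 95.9 to 133 FPKM, lay above the 3 mock libraries at 84.6 to 85.9, whereas Renilla replicate 1 reached 119 FPKM. Stard4, a sterol carrier of the cytosol and an SREBP target, differed by 0.18 ± 0.12 from Renilla and was called against mock without the pair (0.32 ± 0.10, adjusted p = 0.0328). Soat1, which esterifies cholesterol for storage, differed by 0.36 ± 0.12 from Renilla (adjusted p = 0.0703), and 11 of 12 guide libraries lay above the highest Renilla value of 24.4 FPKM, while mock reached 30.8. The pair did not go 1 way in these 5 genes. Npc1 and Soat1 in the pair (13.2 and 15.01 FPKM, and 31.8 and 35.2 FPKM) lay above the mean of the other guide libraries (11.5 and 29.9 FPKM). Stard4, at 44.5 and 42.0 FPKM, lay below each of the other guide libraries, as most synthesis enzymes did. Npc2 in the pair stood at 92.9% and 122% of the mean of the other guide libraries, and Mylip at 88.2% and 114%.

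Of the efflux genes, Abcg1, the exporter of cholesterol to HDL, had the smallest adjusted p of all members against both controls. It stood at 5.75, 7.05 and 7.98 FPKM with the Renilla guide and 6.63, 6.60 and 6.60 in mock. Guide e12.3 gave 11.2, 11.7 and 8.63 FPKM, e12.4 gave 10.9, 11.7 and 14.3, e20.1 gave 11, 10.2 and 14.0 and e21.1 gave 12.6, 13.9 and 12.7. All 12 guide libraries, the pair included, lay above all 6 controls. Abcg1, on chromosome 17 from 31057675 to 31117988, was higher by 0.70 ± 0.11 (SE) than with Renilla (limma adjusted p = 0.000566) and by 0.75 ± 0.11 than in mock (adjusted p = 0.000336), and both calls held in each of the 18 fits that left out 1 library (adjusted p up to 0.009 and 0.00409).

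Abca1, the exporter to lipid-poor apolipoprotein, was barely expressed and was not tested. It stood at 0.0433, 0.0433 and 0.0242 FPKM with the Renilla guide and 0.0122, 0.0258 and 0.0403 in mock. The e12.3 libraries held 0.0709, 0.112 and 0.00278 FPKM, those of e12.4 0.0495, 0.298 and 0.118, those of e20.1 0.0652, 0.0890 and 0.101 and those of e21.1 0.111, 0.138 and 0.00247. The pair held the lowest values, each about 1.92 and 1.91 estimated reads, and the other 10 guide libraries, at 15.3 to 92.8 estimated reads, lay above all 6 controls in FPKM. The controls held an estimated 7.63 to 23.0 reads, which overlap those of the guide libraries, so this separation rests on few reads. Nr1h3 (LXRα) stood at 0.216 to 1.39 FPKM with the groups overlapping. Nr1h2 (LXRβ), the form common to most cells, differed from Renilla by 0.19 ± 0.10 (limma adjusted p = 0.267), and its highest values, 59.3 and 68.4 FPKM, were those of the pair.

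Each guide was also compared alone with each control, and these comparisons share the control libraries. With all 18 libraries, e12.3 had 0 of 31 members higher than with Renilla (6 at an unadjusted p under 0.05, in either direction, as did 13.3% of all tested genes), where 3.03% of all tested genes were higher, and 1 higher than in mock (Abcg1), where 2.82% were. Without the pair, e12.3 rests on its replicates 1 and 2 and had 7 members higher than with Renilla (background 5.05%) and 10 higher than in mock (4.78%). For e12.4, 5 members were higher than with Renilla (Mvd, Fdft1, Hsd17b7, Sc5d and Abcg1; background 5.57%) and 9 higher than in mock (5.22%). Its counts were 13 (8.80%) and 15 (8.15%) without the pair, which lies in other groups and enters only through the shared spread. For e20.1, 4 members were higher than with Renilla (Mvd, Fdft1, Sc5d and Abcg1; background 4.61%) and 5 higher than in mock (4.41%), and 9 (7.59%) and 13 (7.13%) without the pair. For e21.1, 3 were higher than with Renilla (Sc5d, Soat1 and Abcg1; background 7.06%) and 1 higher than in mock (Abcg1; 5.91%), and 7 (7.80%) and 9 (7.06%) without the pair. No member was called lower with any guide.

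The median difference of the 19 synthesis enzymes from Renilla was 0.12 with e12.3, 0.62 with e12.4, 0.51 with e20.1 and 0.09 with e21.1 over all libraries. Without the pair it was 0.50 with e12.3 and 0.40 with e21.1. In 16 of the 19 the highest guide mean was that of e12.4, and in 15 of the 19 without the pair. The difference among the 4 guides was nevertheless not called in any member, with 0 called and 0% of all tested genes (1 member, Insig1, and 238 genes in all at an unadjusted p under 0.05; lowest adjusted p of a member 0.985). Without the pair 0 members and 0.0260% of all tested genes were called, and between Renilla and mock 0 members and 0%. A p that misses the threshold does not show that the guides acted alike.

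Markers of maturing myeloid cells moved with the guides beside these genes. Of 12 monocyte and macrophage markers fixed with the lists, 9 were tested and 7 were higher than with Renilla, where 7.77% of all tested genes were, with a median difference of 1.41. Their summed level was 219 to 227 FPKM with the Renilla guide and 205 to 214 in mock, against 335 to 620 FPKM over the guide libraries, and no marker of the list was at 0 in every library. Of 10 neutrophil markers 8 were tested and 2 were higher than with Renilla, against the same background. Their summed level was 108 to 191 FPKM with the Renilla guide and 92.9 to 121 in mock, and 114 to 923 over the guide libraries. Their part in the cholesterol results was not tested, and in bulk RNA a change in the share of a cell type and a change in RNA per cell cannot be told apart. In the pair the median neutrophil marker stood 1.92 and 2.0 log2 units above the controls while the median synthesis enzyme stood at -0.31 and -0.34. In the other 10 guide libraries neutrophil markers stood at 0.01 to 1.80 and synthesis enzymes at 0.28 to 0.90. The highest of these in neutrophil markers was e20.1 replicate 2, at 1.80, with synthesis enzymes at 0.64. How the medians relate was not tested. Monocyte markers were at 0.63 and 1.57 in the pair and 1.30 to 1.85 in the other 10 guide libraries. Hepatocyte markers (Alb, Apoa1 and Cyp7a1), listed because liver makes much cholesterol, summed to at most 0.0740 FPKM in any library.

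Renilla replicate 1 was the highest control in synthesis, with a median of 0.30 against -0.18 to 0.02 in the 5 other controls, and 1 guide library outside the pair lay under it (e21.1 replicate 2, at 0.28). Libraries also varied in how level followed transcript length. Here each library was set against the mean of the other libraries of its own group, not against the controls. A shift in 1 library therefore also moves the values of its group the other way, and groups are not on a common scale. In Renilla replicate 1 and e20.1 replicate 2, the highest in short genes, the genes with transcripts of up to 2310 bases stood at a median of 0.15 and 0.24 log2 units, and those over 4048 bases at -0.06 and -0.24. Farthest the other way was e20.1 replicate 3, at -0.15 and 0.14, for which e20.1 replicate 2 was part of the reference. The 15 other libraries stood at -0.09 to 0.08 and at -0.07 to 0.10. Without Renilla replicate 1 the median difference of the synthesis enzymes from Renilla was 0.49, in place of 0.31.

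**Figure D4:**
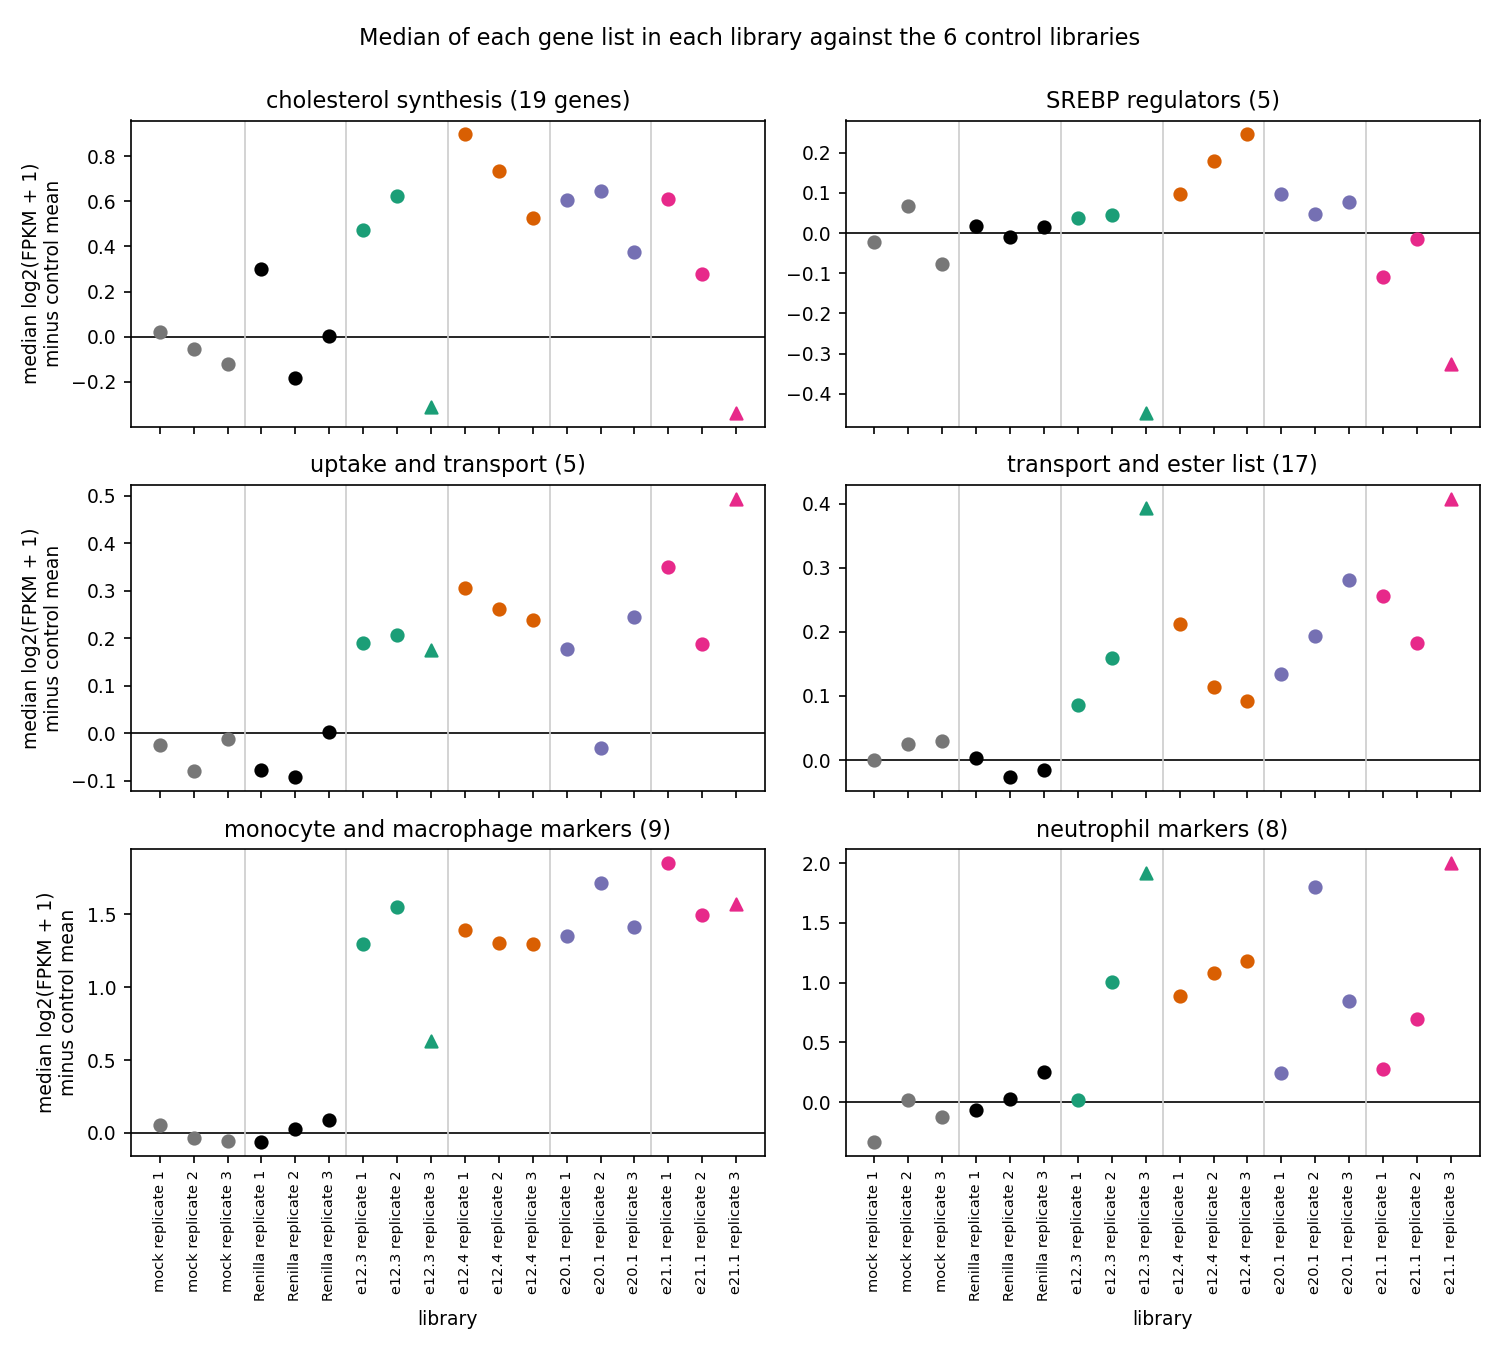
Each point is 1 library: the median over the tested genes of a list of log2(FPKM + 1) minus the mean of the 6 controls, with e21.1 replicate 3 and e12.3 replicate 3 as triangles. The 10 other guide libraries stand at 0.28 to 0.90 for the synthesis enzymes and the triangles at -0.31 and -0.34, whereas the triangles are highest for neutrophil markers and for the transport and ester list.

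Further genes of the pathway were taken from 4 lists. Of 19 genes of cholesterol transport and ester turnover, 17 were tested and 6 were higher than with Renilla, where 7.77% of all tested genes were, and 0 lower, with a median of 0.15. Lrp1, a scavenging receptor for lipoprotein remnants, rose from 2.46 ± 0.20 FPKM (SD, n = 3) with Renilla to 13.2 ± 3.55 in the guides (n = 12), a difference of 1.99 ± 0.17 (limma adjusted p = 1.3e-06). Lipa, the lysosomal lipase that frees cholesterol from esters, rose from 12.5 ± 0.65 to 27.5 ± 7.72 FPKM (1.04 ± 0.16, adjusted p = 0.000352). Nceh1, a neutral ester hydrolase of macrophages, rose from 8.29 ± 0.29 to 12.27 ± 0.71 FPKM (0.51 ± 0.07, adjusted p = 0.000155). The others of the 6 were Scarb1, Scarb2 and Gramd1a, and the same 6 genes were higher than in mock. Without the pair these 6 were again higher against each control, and Vldlr, a lipoprotein receptor, was lower (-0.90 ± 0.10 from Renilla, adjusted p = 2.12e-05, against -0.58 ± 0.39 and 0.393 with all libraries). The median of the list stood at 0.39 and 0.41 in the pair, above the 16 other libraries.

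Of 16 electron donors and isoprenoid-branch genes, 15 were tested. Against Renilla 1 was higher, where 7.77% of all tested genes were, and 0 lower, with a median of -0.12, so the list stood near the background. The 1 was Por, which passes electrons to Cyp51 and Sqle and rose from 101.5 ± 1.92 to 123.8 ± 7.69 FPKM (0.28 ± 0.06, limma adjusted p = 0.0071). Cyb5a and Fnta differed by 0.29 ± 0.10 and -0.18 ± 0.07 and were not called (adjusted p = 0.0782 and 0.131).

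Of 19 fatty acid genes driven by SREBP-1, 17 were tested, 0 were called against Renilla and the median was -0.02. At an unadjusted p under 0.05, 2 passed, where 24.4% of all tested genes did. That median was 0.07 against mock, and without the pair it was 0.15 against Renilla and 0.12 against mock. Acaca, Scd2 and Mid1ip1 differed by -0.51 ± 0.19, -0.48 ± 0.22 and 0.14 ± 0.07 (limma adjusted p = 0.114, 0.193 and 0.255). Without the pair, 2 were higher (Acss2 and Elovl1) and Scd2 was lower (-0.30 ± 0.08, adjusted p = 0.0176). Of 15 partners and other targets of LXR, 6 were tested and 0 were called. Of these 6, 0 passed an unadjusted p under 0.05 against Renilla, where 24.4% of all tested genes did. Ncor1, Lpcat3 and Rxrb stood at -0.15 ± 0.11, -0.11 ± 0.13 and -0.09 ± 0.13. Most of that list was not tested, and whether LXR has a part in the higher Abcg1 was not tested.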

How the data were processed

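Poly(A) RNA libraries were made with a directional kit from RNA extracted with TRIzol, per the labels' protocols. The values deposited by the authors are FPKM, fragments per kilobase of transcript scaled to library size, in a table of 23899 genes for 18 libraries. The submitters' processing notes name bcl2fastq 2.22.0.422, Salmon 0.13.0, R 3.5.3, DESeq2 1.22.1 and mm10, and how the FPKM were derived from these is not given in the sources used here. Separate tables of 15 libraries differ from it by at most 3.32e-06 FPKM. No counts were at hand, so no test on counts was run.

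The 33 members, the further lists, the markers and the rule for named genes were chosen with earlier results of these data known. All members are accounted for; by the rule for named genes, values in every library are given for members called with all 18 libraries for the 4 guides against either control, among the guides or in at least 2 single-guide comparisons, and for Srebf1, Srebf2, Insig1, Abca1 and Abcg1. Hmgcs1, Idi1, Lss, Cyp51 and Nsdhl fall outside that rule and were added after their values were seen. Of each further list up to 3 tested genes with the smallest p against Renilla are named with values. A list of genes on SREBP processing is not reported here.

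Values were transformed as log2(FPKM + 1), which understates the change of low genes. Genes averaging 1 FPKM or more (11550) entered 1 limma-trend model of the 6 group means (R 4.3.3, limma 3.58.1), and p-values were Benjamini-Hochberg adjusted over all of them. The 4 guides were weighted equally, and differences among them were tested by an F test. The script was tested on simulated data. Alternatives were another pseudocount, other filters and scaling, no trend, the replicate block, other sets of groups, and libraries left out.

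Low FPKM multiplied by transcript length fall in steps of 1 read, which gave a depth for each library from 1473 genes of at least 2000 bases; 80.7 to 86.9% of these low values fell within 10% of a whole read (an even spread gives 20%). Positions are from GENCODE vM21 and promoters from RefSeq, both on GRCm38. Python 3.11.15, numpy 2.4.6, pandas 2.3.3 and matplotlib 3.10.9 were used.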

Additional observations from a re-analysis of the deposited data

Results flagged for a closer look

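Tm7sf2, a sterol reductase, lay below the Renilla mean of 63.2 FPKM in every e21.1 library and above it in every e12.4 and every e20.1 library. Renilla replicate 1, at 76.0 FPKM, raised that mean, and replicates 2 and 3 stood at 54.6 and 58.9. The e21.1 libraries held 60.1, 62.2 and 51.2 FPKM, the last being 1 of the pair. In mock the values were 60.1, 60.2 and 60.5 FPKM, and e21.1 replicate 2 lay above them. The mean with e12.4 (73.8 ± 2.98 FPKM, SD, n = 3) was 16 FPKM above that with e21.1 (57.8 ± 5.84), and the mean with e20.1 (71.4 ± 8.37) was 13.5 FPKM above it. These pairwise differences were not tested on their own, and the test of a difference among the 4 guides called no member.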

How the results depend on the processing

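No called member changed direction under any alternative run. Among members called neither with all libraries nor without the pair, 5 of 20 changed sign under some alternative against Renilla (Pmvk, Fdps, Tm7sf2, Ebp and Mylip) and 3 of 16 against mock (Srebf1, Insig2 and Mylip). Pmvk, Fdps and Tm7sf2 were nevertheless called higher than Renilla when Renilla replicate 1 and e20.1 replicate 2 were left out along with the pair.

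The libraries left out moved the counts of called members most. Without the pair (e21.1 replicate 3 and e12.3 replicate 3) the counts were 11 against Renilla and 15 against mock for the 4 guides, 7 and 10 for e12.3, 13 and 15 for e12.4, 9 and 13 for e20.1, and 7 and 9 for e21.1. Without the pair, Renilla replicate 1 and e20.1 replicate 2, a choice made after seeing the data, they were 20 and 18 for the 4 guides (12.1% and 13.8% of all tested genes higher). For e12.3 they were 16 and 15 (8.46% and 9.98% of all tested genes called in either direction), and for e12.4 23 and 20 (15.9% and 22.3%). For e20.1 they were 12 and 16 (10.3% and 12.8%), and for e21.1 14 and 14 (15.1% and 16%). Leaving out the pair and Renilla replicate 1 takes away low guide values and the highest control in synthesis, and so favours higher calls. Over all genes the calls went from 1268 to 2085 and 2212 against Renilla and from 1040 to 1878 and 2986 against mock, without the pair and without the 4 libraries.

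With 1 library left out in turn (18 fits; a group of 2 shares its spread with the others), the count ranged from 2 (without Renilla replicate 2) to 6 (without Renilla replicate 1 or either library of the pair) for the 4 guides against Renilla, and from 3 (without mock replicate 3) to 10 (without e12.3 replicate 3) against mock. Against Renilla it ranged from 0 to 4 for e12.3, 4 to 8 for e12.4, 1 to 5 for e20.1 and 1 to 4 for e21.1. Against mock it ranged from 0 to 4 for e12.3, 4 to 11 for e12.4, 1 to 6 for e20.1 and 1 to 4 for e21.1. Against Renilla, the count of 1 for e20.1 came without Renilla replicate 2 (3.46%) or e20.1 replicate 1 (4.49%), where the main fit had 5.68%. That for e21.1 came without Renilla replicate 2 (6.74%) or e21.1 replicate 1 (8.83%), where the main fit had 9.51%. Each mock library left out took e12.4 to 4 (3.83% to 4.21%), e20.1 to 1 (3.01% to 3.36%) and e12.3 to 0 (1.49% to 1.84%) against mock. The main fit had 6.48%, 5.32% and 2.94% there. Without e12.3 replicate 3 the count was 4 for e12.3 against either control (3.39% for Renilla and 2.94% for mock). It was then 8 for e12.4 against Renilla (8.71%) and 4 for e21.1 against mock. The count stayed at 0 between Renilla and mock and among the guides.

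The labels do not say what a replicate number shared across groups stands for. Of 45 same-number pairs 26 had a correlation of deviations over 0.1 (median 0.12), against 11 of 90 pairs of different numbers (median -0.04), and 17 of 18 libraries lay closest to their own number, a hint from the data that some numbers mark a shared source. As not every pair passed 0.1, the block stayed an alternative. The p-values given elsewhere therefore take no account of a source that libraries of the same number may share. With the replicate block, 8 members were called for the 4 guides against Renilla (15.7% of all tested genes) and 9 against mock (12.6%). Against Renilla the block gave 2 for e12.3 (4.76%) and 10 for e12.4 (10.4%). Against mock it gave 8 for e20.1 (7.84%) and 4 for e21.1 (10.3%).

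Renilla and mock together as the control gave 9 members for the 4 guides (2109 of all genes, 18.3%). Shares of all tested genes called in either direction follow each count in brackets. When the fit held no groups but those compared, counts against Renilla were 10 for e12.4 (9.92%) and 1 for e21.1 (2.89%). Against mock they were 0 for e12.3 (0.840%), 19 for e12.4 (20.4%, against 6.48% in the main fit) and 12 for e20.1 (5.37%). Without a filter on low values they were 0 (1.13%), 4 (3%) and 2 (2.47%) for e12.3, e12.4 and e20.1 against mock. That fit tested 23899 genes in place of 11550, which lowers the shares. Over all genes it called 271, 718 and 591, against 340, 748 and 614 in the main fit. A pseudocount of 0.1 gave 1 (3.40%) for e12.3 against Renilla, and upper-quartile scaling gave 0 (2.61%) for e12.3 against mock. The causes were not tested. The other counts, with a stricter filter (5 FPKM in 3 libraries) and without a trend included, moved by no more than 1.5 times. Abca1 rested on few reads, an estimated 1.91 in e21.1 replicate 3, although that was the deepest guide library at 75.6 M reads.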
